A study of Mus musculus with 12 samples.

Results

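The genes described here are 32 genes of cholesterol and fatty acid synthesis together with their regulators, taken by symbol. Of these, 31 were read by at least 1 probe set with a single gene symbol in the platform annotation, and Acat2 was not analysed here. The 31 genes were read by 72 probe sets, and for the 22 genes with several of them the one with the highest mean over the 12 arrays stood for the gene. All 31 lay above the filter on low signals, among 12792 genes tested of 18194 with a probe set.

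The RNA came from dendritic cells isolated from lymph nodes of C57BL/6 mice and cultured. The WT arrays carried RNA of cells with a wild-type label, and the KO arrays RNA of cells labelled p38a-knockout, where p38α is the stress-activated kinase that Mapk14 encodes. The labels do not say how, or in which cells of the animal, Mapk14 was deleted. Each genotype was sampled before treatment (0 h) and after 2 h and 4 h with Pam3CSK4, a synthetic lipopeptide that activates the receptor TLR2, labelled as given at 1 mg/ml. Each of the 6 groups had 2 arrays, A and B. There were no untreated arrays at 2 h or 4 h, so the ligand and the time in culture cannot be told apart, and "response" means the change from 0 h. Nothing in the labels says that arrays came from separate animals or cultures, so the p-values measure the spread between these arrays, which may be technical.

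Cholesterol is built from acetyl-CoA through mevalonate, farnesyl pyrophosphate and squalene. The transcription factors encoded by Srebf1 and Srebf2 (SREBPs) switch on most genes of this route, of fatty acid synthesis and of desaturation. Both are made as membrane proteins of the endoplasmic reticulum, where the escort protein Scap carries them to the Golgi for cleavage when sterols are low, while the Insig proteins hold the complex back when sterols are high. In myeloid cells the nuclear receptor LXR, which senses oxysterols, also drives Srebf1 and the desaturase genes.

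Signals are given as log2(signal + 16) after quantile normalization of the arrays, a scale on which differences understate those of low genes. The trimmed means of the signals as deposited ran from 66.6 to 119, and arrays of one group correlated with r from 0.987 to 0.99 over the tested genes. All 10 dendritic cell markers, such as Itgax and Flt3, lay above the filter, as did all 6 macrophage markers, 4 of 5 T cell, 3 of 5 B cell and all 5 stromal markers. The brightest of 6 Mapk14 probe sets was not lower on the arrays labelled KO: averaged over the times it was higher by 0.31 ± 0.08 (SE; limma, adjusted p = 0.0138). The labels do not say whether the probes lie in the deleted part, so this does not check them. In tissue-derived cells measured in bulk, fewer cells of a type and less RNA per cell cannot be told apart.

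The comparison of 2 h and 4 h with 0 h asks how the lipid synthesis genes changed from 0 h. The response was mixed in direction. In WT cells, 4 of the 31 genes (12.9%) rose at 2 h, beside 8.43% of all genes, and 5 (16.1%) fell, beside 11.5% (Benjamini-Hochberg adjusted p under 0.05 in limma, over all genes tested). At 4 h 5 rose (16.1%, beside 8.31% of all genes) and 4 fell (12.9%, beside 9.9%). In KO cells 4 rose at 2 h (beside 7.85% of all genes) and 4 fell (beside 11.7%). At 4 h 6 rose in KO (19.4%, beside 7.24%) and 3 fell (9.68%, beside 10.9%). Between 2 h and 4 h, 1 gene rose and 1 fell in WT (3.23% each, beside 5.32% and 5.75% of all genes). In KO 2 rose and 1 fell over that interval (6.45% and 3.23%, beside 6.46% and 7.25%). In the 4 comparisons with 0 h the shares that rose were above those of all genes and the shares that fell lay on both sides of them; the list itself was not tested. The median change of the 31 genes in WT was -0.02 at 2 h and 0.07 at 4 h, beside -0.05 and -0.02 for all genes. In KO it was -0.06 and 0.06, beside -0.06 and -0.05. In either genotype 8 genes rose at 1 or more times (Idi1, Fdps, Hmgcs1, Cyp51, Insig1, Srebf1, Stard4 and Fasn) and 6 fell (Pmvk, Ebp, Hsd17b7, Scd1, Scd2 and Fads1).

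The rises are measured against the typical probe set of an array. On the deposited scale, where arrays were not brought to a common level, the median of all genes shifted by -0.35 at 2 h and -0.16 at 4 h in WT, and by -0.41 and -0.20 in KO. On that scale 0 of the 31 genes were called higher (limma), and 7 and 3 were called lower in WT at 2 h and 4 h, and 8 and 3 in KO. Every called rise of these genes against 0 h stayed above 0 there except that of Srebf1, but none was called and some were close to 0. At 2 h Insig1 was at 0.02 in WT and 0.07 in KO, and Cyp51 at 0.09 in WT. With arrays scaled to their trimmed means the counts were those given above for all 4 responses.

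**Figure D1:**
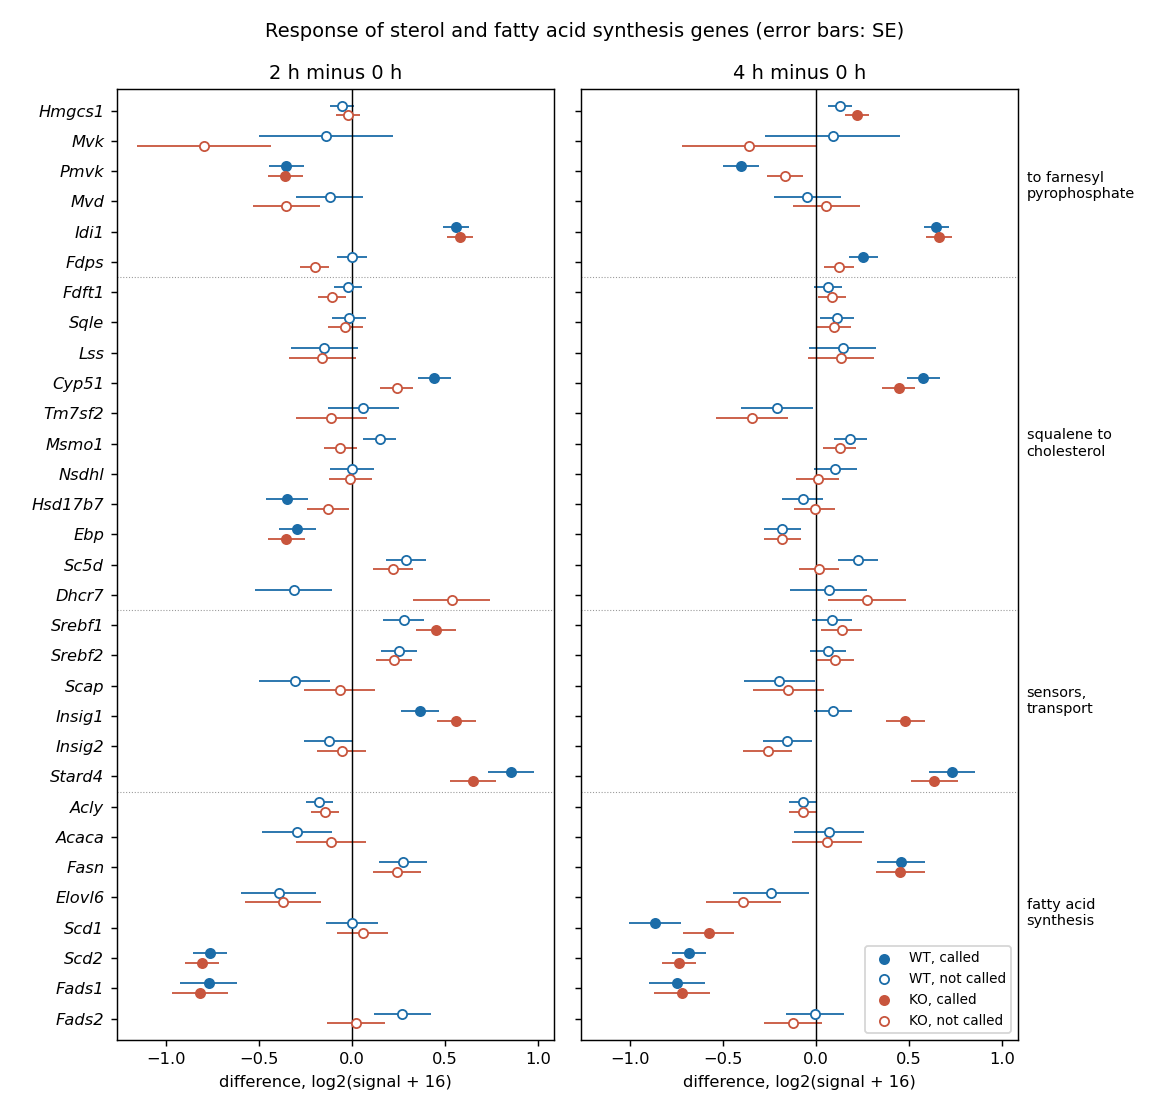
Difference from 0 h in log2(signal + 16) at 2 h (left) and 4 h (right) for the 31 genes, ordered by role, with WT in blue and KO in red; bars are standard errors and filled points have an adjusted p under 0.05. Stard4, Idi1 and Cyp51 lie to the right of 0, Scd2 and Fads1 to the left at both times, and Scd1 to the left at 4 h with values near 0 at 2 h.

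Idi1, isopentenyl diphosphate isomerase, which supplies one of the building blocks of farnesyl pyrophosphate, rose in both genotypes. It read 10.98 and 11.06 on the WT arrays before treatment, 11.49 and 11.66 after 2 h, and 11.64 and 11.70 after 4 h. The KO arrays gave 10.53 and 10.63, then 11.12 and 11.20, then 11.24 and 11.25. Within each genotype both arrays at 2 h and 4 h lay above both at 0 h, and at every time the KO arrays lay below the WT arrays. The rise in WT was 0.56 ± 0.07 (SE, 1.47-fold; adjusted p = 2.6e-05) at 2 h and 0.65 (adjusted p = 4.95e-06) at 4 h. In KO it was 0.58 and 0.66 (adjusted p = 1.76e-05 and 4.95e-06). These 4 calls were lost on the deposited scale (adjusted p up to 0.405), and kept under the 21 other settings tried.

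Of the other enzymes of the first stage, Pmvk, phosphomevalonate kinase, fell. It read 9.29 and 9.29 on the WT arrays before treatment, 8.89 and 8.99 after 2 h, and 8.89 and 8.90 after 4 h. In KO the readings were 9.09 and 9.005, then 8.57 and 8.80, then 8.77 and 8.996. The WT arrays after treatment did not overlap those at 0 h, whereas KO 4 h B lay just under KO 0 h B. The fall was called in WT at both times (-0.35 ± 0.10, adjusted p = 0.0149, and -0.40, adjusted p = 0.00707) and in KO at 2 h (-0.36, adjusted p = 0.0145). The 4 h value in KO was -0.16. The 2 h call in WT ended when WT 0 h A, WT 0 h B or WT 2 h A was left out (an adjusted p of up to 0.111), and that in KO when KO 0 h A or KO 2 h A was left out (up to 0.159).

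Hmgcs1, the HMG-CoA synthase that makes the substrate of mevalonate synthesis, rose late in KO. Its KO arrays read 10.87 and 10.84 before treatment, 10.81 and 10.86 after 2 h, and 11.05 and 11.11 after 4 h. The difference from 0 h was 0.22 ± 0.06 (adjusted p = 0.0238) and that from 2 h was 0.25 (adjusted p = 0.0182). Its WT arrays read 10.94 and 11.04 before treatment and 11.07 and 11.18 after 4 h, a difference of 0.13 that was not called. Of its 4 other probe sets, 1 nearly as bright gave 0.23 in WT at 4 h (adjusted p = 0.0229 over all probe sets), and the other 3 gave 0.11 to 0.24 with no call, so the WT call depends on the probe set. Fdps, farnesyl pyrophosphate synthase, was higher in WT at 4 h than at 0 h by 0.26 ± 0.08 (adjusted p = 0.0332). It was also higher at 4 h than at 2 h in both genotypes, by 0.26 ± 0.08 in WT (adjusted p = 0.0474) and 0.33 in KO (adjusted p = 0.0118). All 3 Fdps calls were lost with the mean of its 2 probe sets, of which the second lay below the filter, at 0.11, 0.08 and 0.06 (adjusted p = 0.627, 0.757 and 0.8). The WT calls were also lost when any array compared other than WT 4 h B was left out (adjusted p up to 0.38), and the KO call without KO 2 h B or KO 4 h B (up to 0.106). The WT call against 2 h was kept under 7 of 22 other settings. The Hmgcs1 call against 0 h was lost without any of its 4 arrays (up to 0.155), and that against 2 h without either KO 2 h array or KO 4 h B (up to 0.137). The Hmgcs1 probe set used has the suffix _x_at, and without such probe sets the call against 0 h was lost (0.0513). By eBayes without trend both Hmgcs1 calls were lost (0.134 and 0.114). Mvk and Mvd, the mevalonate kinase and the mevalonate diphosphate decarboxylase, had no call in any comparison.

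Among the 11 enzymes from squalene to cholesterol, Cyp51, the lanosterol demethylase, was the only one that rose. It read 8.40 and 8.42 on the WT arrays before treatment, 8.87 and 8.83 after 2 h, and 8.91 and 9.05 after 4 h. On the KO arrays it read 8.32 and 8.13, then 8.47 and 8.47, then 8.64 and 8.71. Arrays after treatment lay above those at 0 h in both genotypes. The rise in WT was 0.44 ± 0.09 at 2 h (adjusted p = 0.00201) and 0.58 at 4 h (adjusted p = 2.07e-04), and in KO 0.44 at 4 h (adjusted p = 0.00204), while the KO value at 2 h was 0.24 with no call (adjusted p = 0.0727). A second probe set of Cyp51 gave 0.37 and 0.40 in WT, and another, near the filter, -0.33 and 0.33; with the mean of the 3 the calls in WT at 2 h and KO at 4 h were lost (adjusted p = 0.404 and 0.148).

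Ebp, the sterol isomerase, fell at 2 h, from 8.45 and 8.27 to 8.07 and 8.06 on the WT arrays and from 8.49 and 8.55 to 8.08 and 8.26 on the KO arrays. The differences were -0.29 ± 0.10 (adjusted p = 0.0488) and -0.35 (adjusted p = 0.02). The WT call was kept under 7 of 22 other settings, and the KO call was lost without KO 0 h A (adjusted p = 0.0575), KO 0 h B (0.105) or KO 2 h A (0.165) and by eBayes without trend (0.0551). Hsd17b7, a sterol ketoreductase, fell in WT at 2 h, from 7.38 and 7.42 to 7.12 and 6.98, by 0.35 ± 0.11 (adjusted p = 0.0361), and was back at 7.37 and 7.29 at 4 h. That call was lost when any of the 4 arrays compared was left out (adjusted p up to 0.218) and with the mean of its probe sets (0.173). It was also lost when probe sets with the suffixes _x_at and _s_at, such as the one used, were left out (0.141). The other 8 enzymes of the stage, Fdft1, Sqle, Lss, Tm7sf2, Msmo1, Nsdhl, Sc5d and Dhcr7, had no call in any comparison. Sqle, squalene epoxidase, a rate-controlling enzyme, changed by -0.02 ± 0.09 at 2 h and 0.11 at 4 h in WT.

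The regulators and the transporter responded in part. Stard4, a carrier that moves cholesterol between membranes, read 6.50 and 6.29 on the WT arrays before treatment, 7.30 and 7.20 after 2 h, and 7.11 and 7.15 after 4 h. The KO readings were 6.27 and 6.39, then 7.03 and 6.92, then 7.03 and 6.90. No array after treatment came near those at 0 h in either genotype. The rise in WT was 0.86 ± 0.12 (1.81-fold; adjusted p = 1.14e-04) at 2 h and 0.73 at 4 h (adjusted p = 5.05e-04), and in KO 0.65 and 0.64 (adjusted p = 0.00151 and 0.00167). The 2 other probe sets of Stard4 also moved upwards in all 4 comparisons, by 0.24 to 0.76. The brighter was level with the probe set used (mean 6.84 for both). It was called in WT at 2 h alone (limma, adjusted p = 7.54e-04 over all probe sets). Its adjusted p was 0.074 in WT at 4 h, and 0.141 and 0.243 in KO at 2 h and 4 h. The dimmer had no call (adjusted p from 0.0561 to 0.462). The calls in WT at 4 h and in KO thus depend on the probe set. All 4 calls were kept with the mean of the probe sets (adjusted p up to 0.0143).

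Insig1, which retains the SREBP and Scap complex in the endoplasmic reticulum and is itself an SREBP target, read 8.33 and 8.25 on the WT arrays before treatment, 8.67 and 8.64 after 2 h, and 8.30 and 8.46 after 4 h. On the KO arrays it read 8.19 and 8.03, then 8.63 and 8.71, then 8.46 and 8.73. In WT the 4 h arrays overlapped those at 0 h, and in KO they lay above them. The rise at 2 h was 0.37 ± 0.10 in WT (adjusted p = 0.0199) and 0.56 in KO (adjusted p = 0.00115), and at 4 h 0.09 in WT with no call and 0.48 in KO (adjusted p = 0.00353). The difference between the genotypes in the 4 h response was 0.39 (95% interval 0.08 to 0.70, adjusted p = 0.718), so the responses were not shown to differ. The WT call at 2 h did not survive leaving out WT 0 h B or either 2 h array (adjusted p up to 0.118), nor the KO call at 4 h leaving out KO 4 h B (0.0671).

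Srebf1, which encodes the SREBP that favours fatty acid synthesis genes, read 7.71 and 7.71 on the WT arrays before treatment, 7.97 and 8.01 after 2 h, and 7.74 and 7.86 after 4 h. The KO arrays gave 7.72 and 7.77, then 8.03 and 8.36, then 7.86 and 7.90. The 2 h arrays were the highest in both genotypes. Only the KO value at 2 h was called (0.45 ± 0.11, adjusted p = 0.0079), with 0.28 in WT (adjusted p = 0.0904), and leaving out KO 0 h A or KO 2 h B took the KO value to an adjusted p of 0.0556 and 0.119. On the deposited scale the KO value was -0.02 (adjusted p = 0.958), so its direction depends on the scaling.

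Srebf2, which encodes the SREBP that favours sterol genes, had no call. It read 8.20 and 7.97 on the WT arrays before treatment, 8.32 and 8.34 after 2 h, and 8.17 and 8.13 after 4 h. In KO the readings were 8.0004 and 7.85, then 8.15 and 8.15, then 8.06 and 8.01. Both 2 h arrays lay above those at 0 h in each genotype, by 0.25 ± 0.10 in WT (adjusted p = 0.0883) and 0.22 in KO (adjusted p = 0.129). Scap read 8.08 and 7.62, 7.67 and 7.40, and 7.85 and 7.45 on the WT arrays at the 3 times, and 7.65 and 7.63, 7.84 and 7.31, and 7.67 and 7.32 on the KO arrays. Insig2, the second Insig protein, read 7.10 and 7.19, 7.17 and 6.87, and 6.98 and 7.005 in WT, and 7.24 and 7.06, 7.14 and 7.04, and 6.78 and 6.99 in KO. Neither Scap nor Insig2 had a call, and the arrays of Scap spread as widely within groups as between them.

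In fatty acid metabolism 3 of the 4 desaturases, Scd2, Fads1 and Scd1, fell. Scd2, a stearoyl-CoA desaturase, which puts a double bond into saturated fatty acids, read 8.68 and 8.67 on the WT arrays before treatment, 7.91 and 7.92 after 2 h, and 7.98 and 8.01 after 4 h. The KO readings were 8.72 and 8.91, then 7.95 and 8.07, then 8.07 and 8.09. The groups after treatment were well apart from those at 0 h. The fall in WT was -0.76 ± 0.09 (1.70-fold lower; adjusted p = 1.65e-05) at 2 h and -0.68 at 4 h, and in KO -0.81 and -0.74 (adjusted p = 9.6e-06 and 2.72e-05). The 2 dimmer probe sets of Scd2 were also below 0 in WT, at -0.15 and -0.36 at 2 h and -0.09 and -0.44 at 4 h, but not in KO, where they read 0.11 and 0.38 at 2 h and -0.22 and 0.47 at 4 h. With the mean of the 3 probe sets only the WT call at 2 h was kept.

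Fads1, the fatty acid desaturase that makes arachidonic acid, read 6.75 and 6.73 on the WT arrays before treatment, 6.07 and 5.87 after 2 h, and 6.04 and 5.95 after 4 h. On the KO arrays it read 6.72 and 6.72, then 6.04 and 5.77, then 5.88 and 6.13. The arrays after treatment lay below those at 0 h in both genotypes. The fall was -0.77 ± 0.15 and -0.75 in WT (adjusted p = 0.00161 and 0.00224), and -0.82 and -0.72 in KO (adjusted p = 0.00115 and 0.00304). These calls were kept under all other settings except KO at 4 h with the mean of its probe sets (adjusted p = 0.0911). The dimmer probe set gave -0.28 and 0.01 in WT and -0.07 and 0.15 in KO, and with the mean of both the falls were -0.52 and -0.37 in WT and -0.44 and -0.28 in KO. Fads2, which acts before Fads1 in the same pathway, had no call, with values from -0.12 to 0.27.

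Scd1, the second stearoyl-CoA desaturase measured, fell later. It read 7.46 and 7.44 on the WT arrays before treatment, 7.59 and 7.31 after 2 h, and 6.75 and 6.43 after 4 h. The KO arrays gave 7.35 and 7.53, then 7.58 and 7.40, then 6.79 and 6.93. The 2 h arrays overlapped those at 0 h and the 4 h arrays lay below both. At 4 h Scd1 was lower than at 0 h by -0.86 ± 0.14 in WT (1.82-fold; adjusted p = 2.96e-04) and -0.58 in KO (adjusted p = 0.00759). Against 2 h it was lower by -0.86 in WT (adjusted p = 7.2e-04) and -0.63 in KO (adjusted p = 0.00629). The KO call against 0 h was lost without KO 0 h B (adjusted p = 0.0817) or KO 4 h A (0.0683), and that against 2 h without KO 2 h A (0.0666) or KO 4 h A (0.0552). Neither call against 2 h was kept on the deposited scale (adjusted p = 0.197 in WT and 0.445 in KO).

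Fasn, fatty acid synthase, which makes palmitate, rose at 4 h, from 6.89 and 6.92 to 7.42 and 7.31 on the WT arrays and from 7.08 and 6.72 to 7.36 and 7.36 on the KO arrays. The rise was 0.46 ± 0.13 in WT (adjusted p = 0.0205) and 0.46 in KO (adjusted p = 0.0222). The WT call did not survive leaving out any one of its 4 arrays (adjusted p up to 0.142), and the KO call leaving out KO 0 h B or either 4 h array (up to 0.245). Acly and Acaca, which supply acetyl-CoA and malonyl-CoA to Fasn, and Elovl6, which elongates its product, had no call. The widest of their values were -0.40 for Elovl6 in WT at 2 h (adjusted p = 0.208) and -0.39 in KO at 4 h (adjusted p = 0.225).

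**Figure D2:**
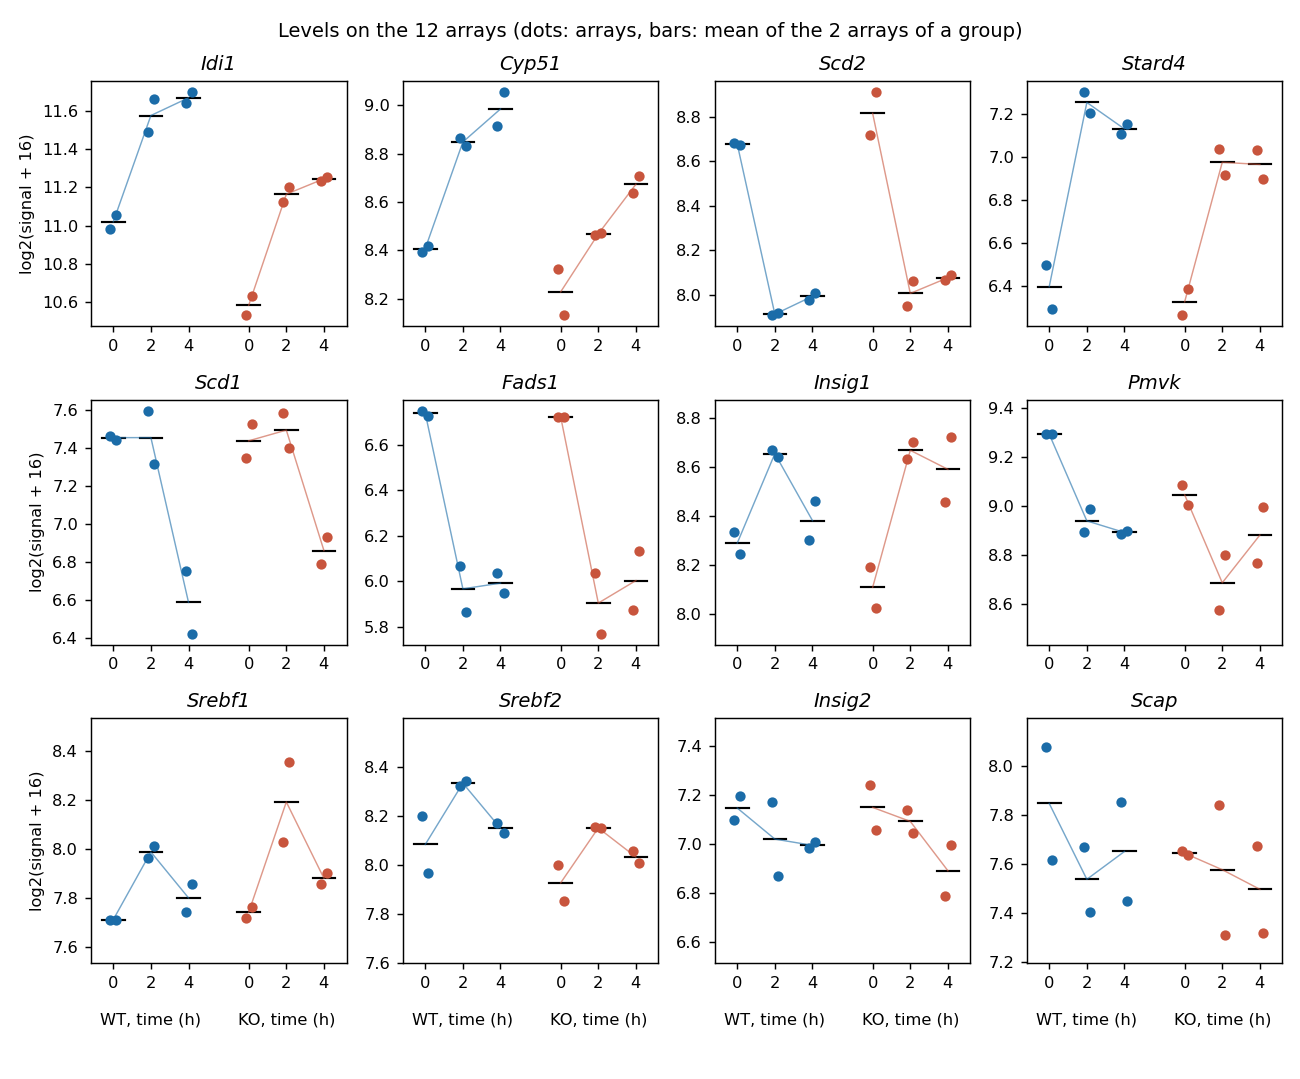
Level in log2(signal + 16) on each of the 12 arrays (dots) with the mean of the 2 arrays of a group (bars) for 12 of the genes, WT on the left in blue and KO on the right in red, by time in h; the vertical scale differs between genes. Idi1 and Stard4 step up by 2 h in both genotypes and Cyp51 in WT, Scd2 and Fads1 step down by 2 h, and Scd1 steps down between 2 h and 4 h.

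The promoters below belong to genes of the sterol route and to Insig1. Hmgcs1 is shown because it is the one gene with a called change whose promoter held a match to the sterol element strings searched. Idi1, Cyp51 and Insig1 were picked by name after their values were seen, among genes called higher at 2 h without such a match. Srebf1 and Fasn also rose without such a match and are not shown. Only the exact strings listed below were searched, so other forms of the sterol element may be present unmarked. Each is the 250 bases before the annotated start in the RefSeq promoter table of GRCm38.p6, on the gene's strand, with every match to a searched motif in capitals: CACCCCAC and TCACNCCAC (forms of the sterol element), CACGTG (E-box), CCAAT (NF-Y box, reverse ATTGG) and GGGCGG (Sp1 box, reverse CCGCCC).
Hmgcs1, chr13:119690101-119690350, plus strand: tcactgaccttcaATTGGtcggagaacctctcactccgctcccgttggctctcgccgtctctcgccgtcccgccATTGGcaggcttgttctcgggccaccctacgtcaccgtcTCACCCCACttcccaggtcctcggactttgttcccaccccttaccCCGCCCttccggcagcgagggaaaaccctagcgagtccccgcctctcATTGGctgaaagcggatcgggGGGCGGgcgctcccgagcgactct
Idi1, chr13:8885356-8885605, plus strand: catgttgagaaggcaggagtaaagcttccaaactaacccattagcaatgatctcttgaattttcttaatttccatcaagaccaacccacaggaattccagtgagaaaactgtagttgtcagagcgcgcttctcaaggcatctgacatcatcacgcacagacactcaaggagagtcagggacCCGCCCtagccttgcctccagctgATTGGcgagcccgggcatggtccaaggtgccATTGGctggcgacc
Cyp51, chr5:4104698-4104947, minus strand: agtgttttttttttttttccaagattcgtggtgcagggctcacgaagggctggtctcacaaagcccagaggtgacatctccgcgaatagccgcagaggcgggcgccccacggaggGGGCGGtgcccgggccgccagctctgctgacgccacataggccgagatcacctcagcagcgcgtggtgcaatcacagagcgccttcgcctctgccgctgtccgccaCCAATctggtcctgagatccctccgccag
Insig1, chr5:28071162-28071411, plus strand: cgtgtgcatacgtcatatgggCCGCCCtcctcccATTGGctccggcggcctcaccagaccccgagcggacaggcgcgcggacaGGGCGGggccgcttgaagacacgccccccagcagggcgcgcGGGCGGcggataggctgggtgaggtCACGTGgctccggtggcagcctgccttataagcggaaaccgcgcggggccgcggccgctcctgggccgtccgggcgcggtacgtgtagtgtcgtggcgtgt

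In Hmgcs1 the matches to CACCCCAC and TCACNCCAC overlapped and began at -136 and -137 from the start. Idi1 held a CCAAT match at -45 and at -14, Cyp51 one at -29, and Insig1 an E-box at -101. Over the 25 genes of the list in the table, 33 promoters of 300 bases (250 before and 50 after the start) were searched on both strands. CCAAT was found in 63.6% of them, beside 37.4% of all 32851 promoters of the table, and GGGCGG in 75.8% beside 35.7%. CACCCCAC was found in 6.06% beside 2.87%, TCACNCCAC in 3.03% beside 1.24%, and CACGTG in 18.2% beside 7.15%. These shares are descriptions, and the promoters of all genes include those of non-coding genes. Fdps, Fdft1, Sqle, Stard4, Fads1, Scd1 and Scd2 were not in the table.

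The comparison of genotypes asks which of these genes differ on the arrays labelled KO. Averaged over the times, Idi1 and Cyp51 were lower in KO and 0 of the 31 genes were higher (limma), beside 4.28% of all genes lower and 6.21% higher. At an unadjusted p under 0.05 the number of genes in either direction was 10. The share of all genes at that threshold was not worked out, so this count says nothing about the list. The median of the 31 genes was -0.02 beside 0.03 for all genes. At single times the genes called lower were Idi1 at 0 h (1.35% of all genes lower), Idi1 and Cyp51 at 2 h (1.29%) and Idi1 at 4 h (1.26%). Of all genes 1.95%, 1.01% and 1.13% were called higher at these times, and 0 of the 31.

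Idi1 was lower in KO by -0.44 ± 0.07 at 0 h (adjusted p = 0.00202), -0.41 at 2 h (adjusted p = 0.00476) and -0.42 at 4 h (adjusted p = 0.00352). Averaged over the times this was -0.42 ± 0.04 (95% interval -0.51 to -0.34; 1.34-fold; adjusted p = 4.08e-06), and the call was kept under all 21 other settings. The second Idi1 probe set gave -0.58 averaged over the times (adjusted p = 0.00343 over all probe sets). Leaving out WT 2 h B or KO 2 h A raised the adjusted p at 2 h to 0.0931 and 0.0551, and leaving out WT 4 h B raised that at 4 h to 0.0561. On the deposited scale the differences at 0 h and 4 h were not called (adjusted p = 0.229 and 0.285), whereas those at 2 h and averaged over the times were. Averaging its 2 probe sets also ended the calls at 2 h and 4 h (adjusted p = 0.0855 and 0.0912), and eBayes without trend ended those at all 3 times (up to 0.105). The difference of the responses was 0.02 at 2 h (95% interval -0.18 to 0.23) and 0.01 at 4 h (-0.20 to 0.22). The second probe set changed by 0.32 and 0.42 in WT with no call (limma, adjusted p = 0.295 and 0.169 over all probe sets). In KO it rose by 0.64 and 0.73 (adjusted p = 0.0291 and 0.0149). Its differences of the responses were 0.32 and 0.31, with no call.

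Cyp51 was lower in KO by -0.29 ± 0.05 averaged over the times (adjusted p = 0.00153), a call lost with the mean of its 3 probe sets (-0.13, adjusted p = 0.279). At 2 h it was lower by -0.38 ± 0.09 (adjusted p = 0.0348), and this call was lost when any of the 4 arrays at 2 h was left out (adjusted p up to 0.174). At 0 h and 4 h the differences were -0.18 and -0.31, with no call. All 6 genes of the stage to farnesyl pyrophosphate were below 0 in KO averaged over the times, from -0.42 for Idi1 to -0.08 for Mvk, with Idi1 the one called. At single times Mvk was above 0 at 0 h (0.29) and Mvd at 4 h (0.03). The share of all genes below 0 was not worked out, so these signs do not show that the stage was lower in KO. For Hmgcs1 the call depends on the probe set. A probe set nearly as bright gave -0.18 (limma, adjusted p = 0.0145 over all probe sets) and a dim one -0.50 (adjusted p = 0.0129). Its remaining probe sets gave -0.07 and -0.14 with no call. The 8 genes of fatty acid synthesis lay between -0.09 and 0.10, with no call.

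Markers of several cell types moved with the genotype or with time. All 6 macrophage markers were higher in KO averaged over the times, with a median of 0.67. Of these 5 were called (83.3%, beside 6.21% of all genes higher). Their summed signal was 1192 to 1210 on the WT arrays at 0 h and 1868 to 1966 on the KO arrays, 832 to 901 against 1306 to 1368 at 2 h, and 760 to 821 against 1264 to 1285 at 4 h, so that in both genotypes this sum was lower after treatment. Adgre1, 1 of the 6, was instead higher at 4 h than at 0 h, by 0.66 ± 0.14 in WT (adjusted p = 0.00273) and 0.52 in KO (adjusted p = 0.0148). C1qa was higher in KO by 0.75 ± 0.07 (adjusted p = 2.53e-06). Of the 10 dendritic cell markers 5 were called higher and 1 lower in KO averaged over the times, with a median of 0.16. These were 50% and 10%, beside 6.21% and 4.28% of all genes.

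Several lymphocyte markers were lower at 4 h. The B cell marker Cd79b was lower at 4 h than at 0 h by -1.45 ± 0.13 in WT (adjusted p = 7.97e-07) and -1.48 in KO (adjusted p = 8.19e-07). Its mean over the times was above that of WT in KO by 0.47 (adjusted p = 6.58e-04). Ms4a1, another of the 3 B cell markers tested, went the other way. It was higher at 4 h than at 0 h by 0.38 in WT and 0.22 in KO, with no call. The summed signal of the B cell markers was 366 to 401 at 0 h and 296 to 317 at 4 h in WT, and 468 to 524 and 321 to 396 in KO. All 4 T cell markers were below 0 at 4 h against 0 h in both genotypes, with medians of -0.35 in WT and -0.25 in KO. Called were 2 in WT (50%, beside 9.9% of all genes lower) and 1 in KO (25%, beside 10.9%). The part of these cell types in the differences of Idi1 and Cyp51, and in the responses, was not tested.

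**Figure D3:**
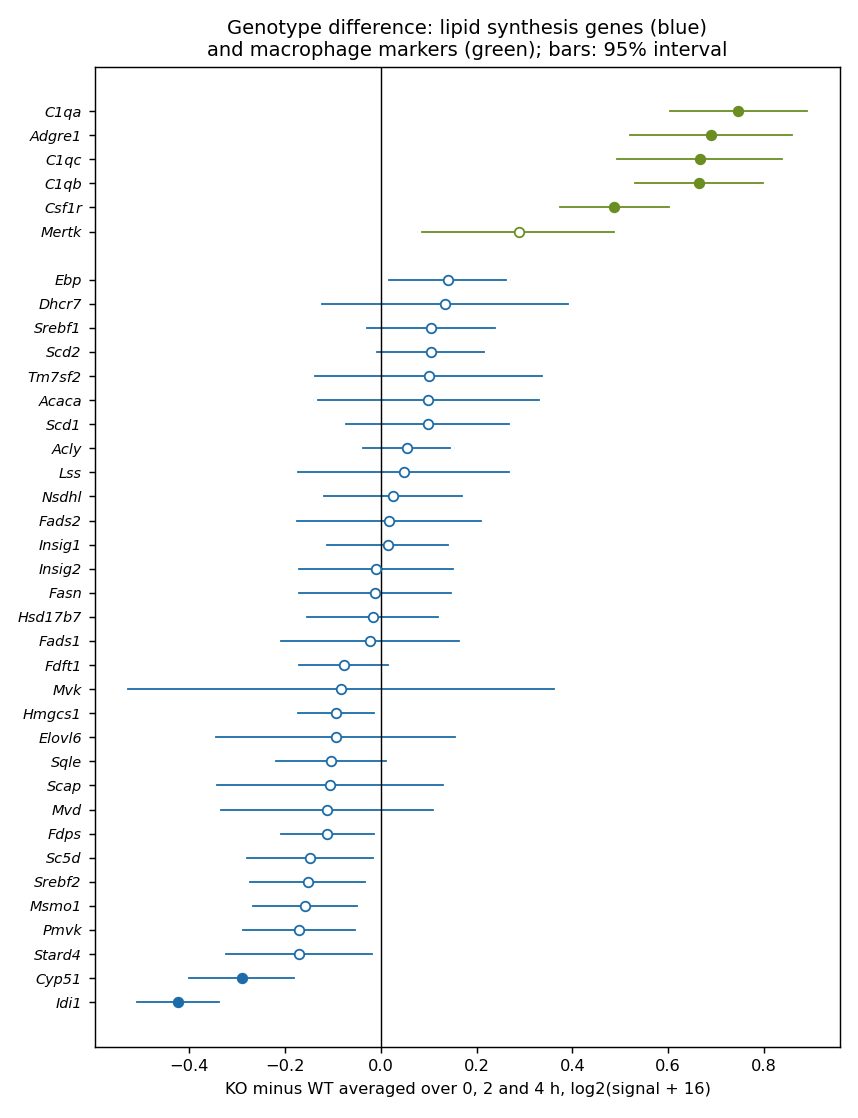
Difference between KO and WT averaged over 0, 2 and 4 h in log2(signal + 16), with its 95% interval, for the 31 lipid synthesis genes (blue) and 6 macrophage markers (green); filled points have an adjusted p under 0.05. Idi1 and Cyp51 are the filled blue points, at -0.42 and -0.29, and the markers all lie above 0.

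The difference between the responses of the genotypes was tested for each gene. In limma 0 of the 31 genes were called at 2 h (0.0313% of all genes called) and 0 at 4 h (0.0469%), and 0 under each other setting. At an unadjusted p under 0.05 there was 1 at 2 h, Dhcr7, and 1 at 4 h, Insig1, with the share of all genes at that threshold not worked out. For Scd2 the difference of the 2 h responses was -0.04 (95% interval -0.32 to 0.23), for Fads1 -0.05 (-0.50 to 0.41) and for Stard4 -0.21 (-0.58 to 0.17).

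Other genes of lipid metabolism were listed by role, and 42 of 52 were tested. In WT 5 rose (11.9%, beside 8.43% of all genes) and 8 fell (19%, beside 11.5%) at 2 h, and 6 rose (14.3%, beside 8.31%) and 9 fell (21.4%, beside 9.9%) at 4 h. In KO 3 rose (7.14%, beside 7.85%) and 7 fell (16.7%, beside 11.7%) at 2 h, and 5 rose (11.9%, beside 7.24%) and 7 fell (16.7%, beside 10.9%) at 4 h. Averaged over the times 5 were higher (11.9%, beside 6.21%) and 1 lower (2.38%, beside 4.28%) in KO. The genes named are the 8 with the smallest adjusted p in any comparison of times within a genotype, 4 h against 2 h included.

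Erlin1, which helps degrade sterol-sensing proteins of the endoplasmic reticulum, fell most of these 8. It went from 9.34 and 9.38 to 7.84 and 7.91 and then 8.26 and 8.34 on the WT arrays, and from 9.40 and 9.36 to 8.19 and 8.05 and then 8.57 and 8.63 on the KO arrays. The change at 2 h was -1.49 ± 0.08 in WT (adjusted p = 2.81e-09) and -1.26 in KO (adjusted p = 2.31e-08). Hacd2, an enzyme of the elongation of very long chain fatty acids, rose most of them. It went from 8.10 and 8.01 to 9.81 and 9.62 and then 9.36 and 9.13 on the WT arrays, and from 8.37 and 8.16 to 9.62 and 9.78 and then 9.38 and 9.39 on the KO arrays. The change at 2 h was 1.66 ± 0.10 in WT (adjusted p = 7.85e-09) and 1.44 in KO (adjusted p = 5.07e-08).

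Idi2, a near copy of Idi1, rose by 1.32 ± 0.19 in WT at 2 h (adjusted p = 9.98e-05) and 0.65 in KO (adjusted p = 0.0243), from arrays near the filter at 0 h (4.93 and 4.79 in WT, 4.91 and 4.62 in KO). It was lower in KO by -0.44 ± 0.11 averaged over the times (adjusted p = 0.0161), which leaving out WT 2 h A raised to 0.0563. Whether its probe set also reads Idi1 was not tested, so its values are uncertain.

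Of the oxysterol enzymes, Ch25h rose and Cyp27a1 fell. Ch25h, the hydroxylase that makes an oxysterol which blocks SREBP processing, rose at 2 h by 0.48 ± 0.11 in WT (adjusted p = 0.00491) and 0.73 in KO (adjusted p = 1.78e-04) and fell back by 4 h. On the WT arrays it read 7.12 and 7.13, then 7.67 and 7.54, then 7.07 and 7.19, and on the KO arrays 7.37 and 7.34, then 7.97 and 8.20, then 7.62 and 7.66. At each time the KO arrays lay above the WT arrays, by 0.41 ± 0.06 averaged over the times (adjusted p = 5.1e-04), a call lost on the deposited scale (adjusted p = 0.453). Cyp27a1, a mitochondrial sterol hydroxylase, fell at 2 h by -0.58 ± 0.15 in WT (adjusted p = 0.00961) and -1.07 in KO (adjusted p = 7.17e-05). With the mean of its 2 probe sets the values were -0.32 (adjusted p = 0.06) and -0.30 (adjusted p = 0.0777), and leaving out WT 0 h A (0.131) or, alternatively, WT 2 h B (0.0533) ended the WT call too. Cyp7b1, another oxysterol enzyme, had no call.

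Abca1, the cholesterol exporter and an LXR target, fell by 4 h, by -0.45 ± 0.11 in WT (adjusted p = 0.0106) and -0.68 in KO (adjusted p = 4.72e-04). Its smallest adjusted p was that of 4 h against 2 h in KO (-1.001, adjusted p = 3.3e-05). With the mean of its probe sets the values against 0 h were 0.02 in WT (adjusted p = 0.918) and -0.30 in KO (adjusted p = 0.0706), so its direction in WT depends on the probe set. Abcg1, a second exporter and LXR target, would take its place if only comparisons with 0 h were ranked. It was lower at 2 h by -0.65 ± 0.11 in WT (adjusted p = 3e-04) and -0.35 in KO (adjusted p = 0.0289), the KO call being lost without KO 0 h B (0.214) or KO 2 h B (0.176). Elovl5, an elongase of polyunsaturated fatty acids, was lower at 4 h by -0.41 ± 0.08 in WT (adjusted p = 0.00162) and -0.53 in KO (adjusted p = 1.63e-04). Acsl5, which activates long chain fatty acids, was higher at 4 h by 0.57 ± 0.09 in WT (adjusted p = 1.92e-04) and 0.59 in KO (adjusted p = 1.45e-04). On the deposited scale the calls of Ch25h at 2 h and of Elovl5 and Acsl5 at 4 h were lost in both genotypes (adjusted p from 0.0841 to 0.814).

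**Figure D4:**
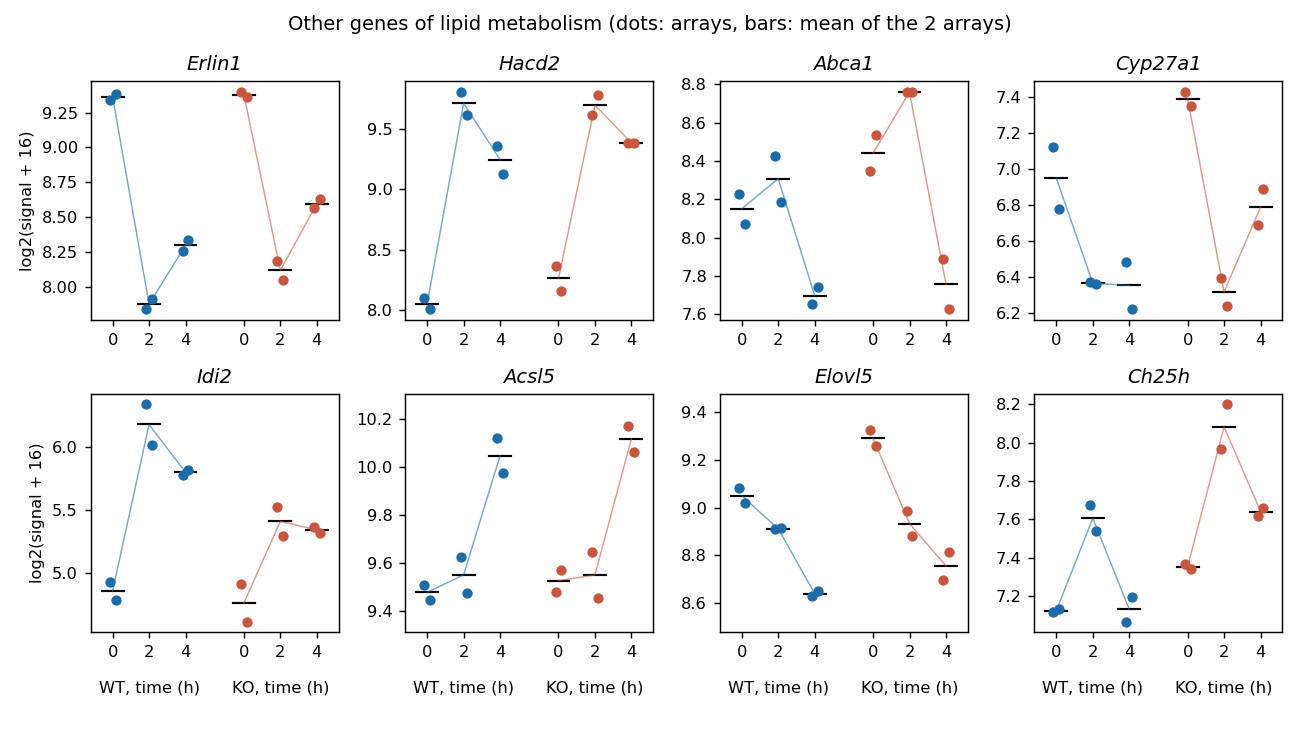
Level in log2(signal + 16) on each of the 12 arrays (dots) with the mean of the 2 arrays of a group (bars) for 8 other genes of lipid metabolism, WT in blue and KO in red, by time in h; the vertical scale differs between genes. Erlin1 falls and Hacd2 rises by more than 1 log2 unit at 2 h in both genotypes, and the Ch25h dots of KO lie above those of WT at each time.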

How the data were processed

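Messenger RNA was measured on 12 Affymetrix mouse arrays, 2 for each genotype label and time. Per the submitters' processing notes, the authors summarised each probe set with MAS5 into an intensity on a linear scale; its version and scaling target were not given. The platform annotation names 1 gene for 34958 of 45101 probe sets, several for 932 and none for 9211, and only the first kind was used. The intensities were quantile normalized and taken as log2(value + 16). The brightest probe set stood for each gene, and genes whose mean fell below the 40th percentile over all probe sets (4.73, or a signal of 10.6) were left out. A model with a mean for each of the 6 groups was fitted in R 4.3.3 by limma 3.58.1, using lmFit and then eBayes with an intensity trend (residual degrees of freedom 6, prior 9.13). P-values are two-sided and were adjusted by Benjamini-Hochberg over 12792 genes. Errors after ± are standard errors. The number of arrays limits the precision.

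Members, lists and tests were chosen with earlier results of these data known. Values in every array are given for the 8 genes called in most comparisons and for the regulators, and every gene with a call is named. Comparisons with 0 h of one genotype share the 0 h arrays. The letters A and B were not used as pairs in the main fit. The correlation of the A minus B differences between groups ran from -0.0422 to 0.105, so little of the spread was shared by letter. Whether arrays of one letter were matched cannot be decided from this, and the labels do not say. The fit was tested on simulated data for WT at 4 h against 0 h, with 50 genes changed at each size and 12592 unchanged. Of changes of 0.5 log2 units 20% were called, and of changes of 1 log2 unit 80%. In the data far more genes were called in that comparison, 1063 higher and 1267 lower. The adjustment was therefore stricter in the simulation, and its shares do not give the recovery in the data. The absence of a call still does not show that a small change was absent. Alternatives changed the scaling (none, or to the 2% trimmed mean), the pseudocount (1 or 64), the filter (none), the probe sets (their mean, or none with the suffixes _x_at and _s_at), the moderation (without trend), the arrays in the fit (those compared, or 1 left out) and the block (the letter).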

Additional observations from a re-analysis of the deposited data

Results flagged for a closer look

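Dhcr7, the reductase of the last step of cholesterol synthesis, moved in opposite directions in the 2 genotypes at 2 h in every array. On the WT arrays it read 6.01 and 6.07 before treatment and 5.46 and 5.99 after 2 h. On the KO arrays it read 5.83 and 5.81 before treatment and 6.12 and 6.59 after 2 h. The difference of the responses was 0.85 (0.8483; 95% interval 0.22 to 1.48), but after adjustment over all genes it did not pass the threshold (limma, adjusted p = 0.736). The change was -0.31 ± 0.21 in WT (adjusted p = 0.345) and 0.53 in KO (adjusted p = 0.089). At 4 h the difference of the responses was 0.21 (adjusted p = 0.969).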

How the results depend on the processing

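Of the 46 calls made on the 31 genes over the 12 comparisons, the deposited scale kept 17, lost 28 and reversed 1. Trimmed-mean scaling kept 44, the mean of all probe sets 32, eBayes without trend 32, pseudocounts of 1 and 64 kept 45 and 46, no filter 44, and probe sets without the suffixes 44. Only the groups compared kept 40 of the 44 that could be recomputed, and leaving out 1 array lost between 3 and 7. With the replicate block 8 genes were called in WT at 2 h (9 without it), Ebp being lost at an adjusted p of 0.0506, and 3 in KO minus WT averaged over the times (2 without it); it lost no other call of these genes.

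Counts of called genes that moved on the deposited scale were 3 in WT and 3 in KO at 4 h against 0 h, 0 in WT and 0 in KO at 4 h against 2 h, and 0, 1 and 0 in KO minus WT at 0 h, 2 h and 4 h. In WT at 4 h against 2 h, 1 was called with trimmed-mean scaling, no filter, the mean of all probe sets, eBayes without trend or only the groups compared, and 1 to 2 with 1 array left out. In KO at 4 h against 2 h, 1 was called with eBayes without trend and 1 to 3 with 1 array left out. In KO minus WT, eBayes without trend called 0 at 0 h, 0 at 2 h and 0 at 4 h, and the mean of all probe sets 0 at 2 h and 0 at 4 h. Leaving out 1 array gave 0 to 2 at 2 h and 0 to 1 at 4 h.

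Values that reversed on the deposited scale were Srebf1 in KO at 2 h (-0.02085), Erlin1 in KO minus WT averaged over the times (-0.006936), and Hsd17b12 in WT at 2 h (-0.0244) and in KO minus WT averaged over the times (-0.02142). Abca1 in WT at 4 h reversed with the mean of its probe sets (0.02388). The medians of all genes shifted on the deposited scale; otherwise the cause was not tested. The filter lay at 4.73, and the signal over background of single probe sets was not assessed here.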

Other observations

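Mvk, mevalonate kinase, had the widest standard error in the responses of its stage, 0.36, and no call. Its KO arrays at 2 h read 4.71 and 5.98 and at 4 h 5.27 and 6.30, so that the arrays of one group differed by more than 1 log2 unit, as did none of the WT groups. Its difference from 0 h in KO at 2 h was -0.80 (adjusted p = 0.146).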
